A study of Rattus norvegicus with 8 samples.

Results

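The genes described here are the stress machinery of the endoplasmic reticulum (ER), 40 genes of the 12784 gene symbols in the deposited expression table. They were taken by name. There are 15 ER chaperones and folding enzymes, which the transcription factors ATF6 and XBP1 drive, 7 genes of ER-associated degradation (ERAD), 6 stress sensors and transcription factors, and 12 targets of the transcription factor ATF4. All 40 were in the table and all 40 passed the filter on low values, which asked for 0.5 FPKM or more on average across libraries.

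The study placed a cDNA of HectD3, a ubiquitin ligase of the HECT family, or of the control LacZ, bacterial beta-galactosidase, in cultured rat heart muscle cells and sequenced polyadenylated RNA with a stranded kit. The cells were NRVCMs, ventricular cardiomyocytes of newborn rats in primary culture, and both groups received an adenovirus, HectD3 in 4 libraries and LacZ in 4, for 72 h after 24 h in culture. The methods name Wistar rats and the reporting summary Sprague Dawley rats. The libraries are called biological replicates, and nothing says that each came from a separate culture, so p-values measure the spread between these libraries.

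Values are FPKM, which the authors' tools scaled for transcript length and library size, and the read depth is unknown. Hectd3 itself, which checks the labels, was at 547, 915, 590.0 and 161 FPKM with the HectD3 virus, against 7.89, 7.86, 6.18 and 6.49 FPKM with the LacZ virus, with a log2 difference of 5.86 (SE 0.44, adjusted p = 0.00292). These values do not tell RNA of the virus from RNA of the cells' own gene, and an exact permutation test of the group means gave a two-sided p of 0.0286, the smallest that 4 libraries against 4 allow. All 10 cardiomyocyte markers listed were present, with Tnnt2, cardiac troponin T, at 5269 ± 273 FPKM with the HectD3 virus and 5115 ± 279 FPKM with the LacZ virus (SD, n = 4 each). Markers of other cells were present too, 9 of 10 listed for fibroblasts, 6 of 6 for smooth muscle and pericytes, 6 of 7 for endothelium and 8 of 9 for macrophages and leukocytes, none of them at 0 in a whole group. Libraries stood apart within groups: LacZ 1 (-40.8), LacZ 2 (-27.1) and HectD3 4 (-13.4) had negative scores on the first principal component of all genes, which held 58.4% of the variance, and the other 5 scored 9.01 to 18.8. Values below are therefore given by library, always from replicate 1 to replicate 4.

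The ER folds and modifies proteins that enter the secretory pathway, and in heart muscle it also stores the calcium that drives contraction. When unfolded protein builds up, 3 sensors in its membrane signal to the nucleus: ATF6, which is cut to release a transcription factor, IRE1 (Ern1), which splices the Xbp1 message, and PERK (Eif2ak3), which phosphorylates the initiation factor eIF2. ATF6 and XBP1 raise chaperones and ERAD genes. Phosphorylated eIF2 lowers translation in general and favours translation of ATF4, which raises genes of amino acid supply, redox defence and cell death. Other eIF2 kinases answer amino acid loss, heme loss and double-stranded RNA, and the shared part of their output is called the integrated stress response.

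The letters before the genes were searched for elements of both arms. RefSeq windows of 300 bases (assembly GRCr8), 250 before and 50 after the transcription start, matched 34 of the 40 genes. The ER stress element, which ATF6 binds together with NF-Y, was searched on both strands as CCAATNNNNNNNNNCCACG. It stood in 6 of 12 matched chaperone genes, 1 of 6 ERAD genes, 1 of 4 sensor and factor genes and 0 of 12 ATF4 targets, beside 0.0765% of the 27457 genes with a window. The chaperones Hspa5, Hsp90b1, Calr, Canx, Dnajc3 and Creld2, the ERAD gene Derl3 and Xbp1 held it. Hspa5 is shown from 150 bases before its start up to the start, to display the element in its setting, and also holds TGACGTG, the core of the element that XBP1 and ATF6 bind. For the others the element is shown with 12 bases on each side. All are written on the strand of the gene, with the matched letters in capitals and the 9 bases between them in lower case. Where the match is on the opposite strand it reads CGTGG, 9 bases, ATTGG.
Hspa5 (chr3:38452866-38453015, plus strand): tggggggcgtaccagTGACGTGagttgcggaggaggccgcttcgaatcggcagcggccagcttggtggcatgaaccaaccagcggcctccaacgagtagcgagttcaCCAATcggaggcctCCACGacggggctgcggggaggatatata
Hsp90b1 (chr7:23012439-23012481, minus strand): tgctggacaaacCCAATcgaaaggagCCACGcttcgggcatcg
Hsp90b1 (chr7:23012335-23012377, minus strand): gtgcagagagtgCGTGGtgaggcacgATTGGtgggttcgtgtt
Calr (chr19:40213123-40213165, plus strand): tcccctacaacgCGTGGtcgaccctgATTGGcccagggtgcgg
Canx (chr10:35158057-35158099, minus strand): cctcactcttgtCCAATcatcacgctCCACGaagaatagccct
Dnajc3 (chr15:102432522-102432564, plus strand): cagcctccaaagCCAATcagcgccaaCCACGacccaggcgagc
Creld2 (chr7:121789227-121789269, plus strand): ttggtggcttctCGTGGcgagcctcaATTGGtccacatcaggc
Derl3 (chr20:12766589-12766631, minus strand): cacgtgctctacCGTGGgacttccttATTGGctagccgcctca
Xbp1 (chr14:84604546-84604588, plus strand): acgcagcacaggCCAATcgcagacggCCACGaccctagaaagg

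In these sequences the element began 43 bases before the start in Hspa5, 65 in Xbp1, 133 in Dnajc3, 145 in Creld2, 154 in Derl3, 230 in Canx and 232 in Calr. Hsp90b1 held a pair of copies in opposite directions, which began 176 and 72 bases before its start. The core TGACGTG stood in 2 of 12 chaperone genes, Hspa5 and Hyou1, and in none of the other 22 matched genes, beside 2.02% of all genes with a window. Hyou1 is shown because its RNA carried the clearest difference between the viruses among the 40.
Hyou1 (chr8:53602679-53602709, plus strand): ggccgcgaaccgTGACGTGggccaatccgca

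ATF4 binds amino acid response elements together with C/EBP factors, and these were searched on both strands as TGATGNAA. The letters stood in 3 of 12 ATF4 targets, Trib3, Chac1 and Nupr1, in 1 of 6 ERAD genes, Herpud1, and in 0 of 12 chaperone genes, beside 4.16% of all genes with a window. In all 4 the match was on the strand opposite to the gene, so its reverse complement is printed in capitals. These stretches are shown because Herpud1, Chac1 and Trib3 were among the genes with the widest spread between libraries, while Nupr1 was not. Ddit3, Ddit4 and Sesn2, which also spread widely, held no match in their windows. A match is no proof of binding.
Trib3 (chr3:161275535-161275566, minus strand): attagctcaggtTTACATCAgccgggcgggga
Chac1 (chr3:126795952-126795983, plus strand): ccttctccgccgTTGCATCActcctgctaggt
Nupr1 (chr1:190645937-190645968, minus strand): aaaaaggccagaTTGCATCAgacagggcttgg
Herpud1 (chr19:10614872-10614903, minus strand): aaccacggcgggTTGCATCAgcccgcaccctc

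Chaperones were compared first between the viruses. Their RNA was abundant, with a summed level of the 15 genes of 2982 to 3170 FPKM in the HectD3 libraries and of 2852 to 3545 FPKM in the LacZ libraries. The mean was lower with HectD3 in 13 of the 15 (11 with median-ratio scaling, 14 with TPM and 15 with quantile normalization), and the median log2 difference was -0.12, beside -0.023 over all 12567 genes tested. That median stayed below 0 in all 22 settings tried, from -0.17 with TPM to -0.059 without LacZ 3. The median over all genes was -0.070 with TPM and -0.047 without LacZ 3. Without LacZ 3, 10 of the 15 were lower in the mean, beside 58.6% of all genes. Limma on log2(FPKM + 1), with adjustment over all genes tested, called none of the 15, none of the 40 and only Hectd3 among all genes (0.00796% of genes called higher and 0% called lower). At an unadjusted p under 0.05 the lower ones were Hyou1 and Dnajb9, 2 of the 15 and 2 of the 40, while 4.28% of all genes were lower by that rule, so the share over the 40 is near the background. None of the 40 was higher by it, beside 2.87% of all genes. The mean alone was lower with HectD3 in 55.5% of all genes, in 50.2% with median-ratio scaling, in 65.7% with TPM and in 47.2% with quantile normalization, so that background moved with the scaling too. In counts, the shares past the unadjusted threshold are 538 lower and 361 higher of all genes, while TPM gave 734 lower and 172 higher.

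Hyou1, an ER member of the HSP70 family that helps BiP release its nucleotide, was at 63.8, 63.5, 59.3 and 55.2 FPKM with the HectD3 virus, against 81.4, 70.2, 75.6 and 71.5 FPKM with the LacZ virus. Every HectD3 library was below every LacZ library. The groups averaged 60.5 ± 4.06 FPKM with the HectD3 virus and 74.7 ± 5.03 FPKM with the LacZ virus (SD, n = 4 each), a log2 difference of -0.30 (SE 0.078, adjusted p = 0.481). The gene has 1 transcript in the table, at chr8:48699769-48711910 on the plus strand, and the genome build of the deposited positions was not given in the sources used here. Hyou1 stayed lower at an unadjusted p under 0.05 in all 22 settings tried, each of the 8 libraries left out in turn among them, with log2 differences of -0.35 to -0.24 and adjusted p of 0.182 to 0.932.

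Dnajb9 (ERdj4), a J-domain partner of BiP, was at 24.9, 20.5, 24.3 and 26.2 FPKM with the HectD3 virus, against 38.9, 24.7, 33.4 and 28.7 FPKM with the LacZ virus. LacZ 1 and LacZ 3 were high and LacZ 2 lay inside the HectD3 range. The log2 difference was -0.36 (SE 0.14, adjusted p = 0.677), and without LacZ 1 it was -0.26 (adjusted p = 1). Canx, calnexin, a lectin chaperone of the ER membrane, was at 193, 201, 215 and 198 FPKM with the HectD3 virus, against 216, 222, 228 and 216 FPKM with the LacZ virus. Its groups did not overlap, although the gap between the nearest libraries was narrow, and the log2 difference was -0.13 (SE 0.061, adjusted p = 0.711). With Hyou1 it made 2 of 40 genes with all HectD3 libraries below all LacZ libraries, beside 2.81% of all genes, and no member had the groups apart in the other direction, beside 2.44%.

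Hspa5, which encodes BiP, the central chaperone of the ER lumen and the brake on all 3 sensors, was at 438, 414, 432 and 366 FPKM with the HectD3 virus, against 471, 340.1, 572 and 493 FPKM with the LacZ virus. The HectD3 libraries lay close together, and the LacZ libraries held both the lowest value, in LacZ 2, and the highest, in LacZ 3. The difference of the group means, -0.16 (SE 0.15, adjusted p = 0.762), was smaller than this spread within LacZ. Hsp90b1 (GRP94), the HSP90 of the ER, was at 332, 317, 319 and 298 FPKM with the HectD3 virus, against 317, 290.2, 376 and 346 FPKM with the LacZ virus, again with LacZ 2 lowest and LacZ 3 highest. Its log2 difference was -0.064 (SE 0.088, adjusted p = 0.839). Most of its RNA came from transcript Hsp90b1-201, and the second one, Hsp90b1-202, held 12.9 to 19.3 FPKM in the HectD3 libraries and 15.8 to 18.5 FPKM in the LacZ libraries.

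Calr, calreticulin, a soluble lectin chaperone of the lumen that also binds calcium, had the highest level of the 40. It was at 669, 613, 608 and 618 FPKM with the HectD3 virus, against 551, 554, 677 and 628 FPKM with the LacZ virus. It had a log2 difference of 0.063 (SE 0.085, adjusted p = 0.837), and the groups overlapped. Among the oxidoreductases, the mean log2 difference was -0.12 for Pdia4, -0.031 for Pdia6, -0.0022 for Pdia3, the partner of both lectin chaperones, and -0.0045 for P4hb, which also serves collagen prolyl hydroxylase. The J-domain proteins Dnajb11 (ERdj3) and Dnajc3 (p58IPK) had differences of 0.014 and -0.041. Sdf2l1, which works with ERdj3, Manf, a secreted factor that binds BiP, and Creld2, an ER protein with disulfide isomerase activity, had -0.19, -0.15 and -0.16. All 9 of these had overlapping groups, and their adjusted p lay between 0.727 and 0.996.

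**Figure D1:**
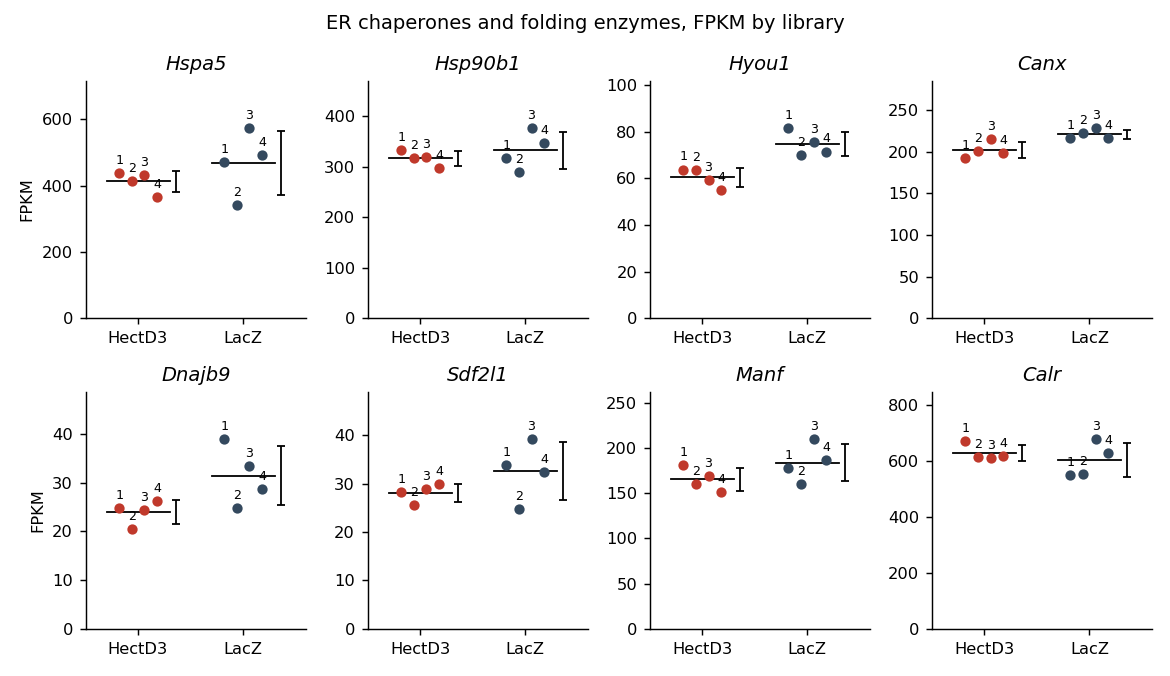
FPKM (linear axis from 0) of 8 chaperone genes, with HectD3 libraries in red on the left and LacZ libraries in blue on the right, numbered by replicate. Horizontal lines are group means and vertical bars beside them 1 SD (n = 4). Hyou1 and Canx show groups that do not overlap, and LacZ 3 is the highest library in Hspa5, Hsp90b1, Canx, Sdf2l1, Manf and Calr.

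The LacZ libraries differed among themselves more than the HectD3 libraries did in most chaperones. LacZ 3 was the highest of the 8 libraries in 12 of the 15 (80%), against 6.16% of all genes tested, and LacZ 2 was the lowest in 6 of them (40%), against 7.03% of all genes. Relative to each gene's mean, the median over the 15 was 0.22 in LacZ 3 and -0.15 in LacZ 2 on the log2 scale, while HectD3 1 to 4 were at 0.019, -0.064, -0.036 and -0.069. The median range within a group was 0.21 among HectD3 libraries and 0.37 among LacZ libraries, and 13 of 15 (86.7%) ranged more widely in LacZ, beside 59% of all genes tested. The summed level of the 10 cardiomyocyte markers was lowest in LacZ 2 and highest in LacZ 3. It was 17966 to 23492 FPKM in the HectD3 libraries and 16359 to 23597 FPKM in the LacZ libraries. Gene by gene, most of the 10 did not share these extremes, with LacZ 3 highest in 1 and LacZ 2 lowest in 4. Their median relative to each gene's mean was highest in HectD3 3, at 0.11, and lowest in HectD3 4, at -0.079. The summed level of the 6 smooth muscle and pericyte markers was also highest in LacZ 3, but lowest in LacZ 1. It was 1963 to 3292 FPKM in the HectD3 libraries and 1634 to 3722 FPKM in the LacZ libraries. None of these 16 markers was at 0, and their part in the chaperone values was not tested. In a culture, more cells of a type and more RNA per cell cannot be told apart.

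How many chaperones passed the unadjusted threshold depended on which LacZ libraries were used. Without LacZ 2 there were 7, Hspa5, Hyou1, Pdia4, Dnajb9, Sdf2l1, Manf and Creld2, beside 2.62% of all genes lower by that rule. Without LacZ 1 only Hyou1 was left, beside 2.79%, and without LacZ 3 again only Hyou1, beside 6.88%. With LacZ 3 and LacZ 4 set against HectD3 1 to 3, a choice made after the libraries were seen to stand apart, all 15 chaperones had a lower mean with HectD3. There 8 of them passed the unadjusted threshold, the same 7 and Hsp90b1, beside 4.32% of all genes, and the median log2 difference of the 15 was -0.16 beside 0.021 over all genes. The lowest adjusted p of any chaperone in that comparison was 0.309, for Hspa5. The comparison kept LacZ 3, the highest library in 12 of the 15. Among those left out were LacZ 2, the lowest in 6, and HectD3 4, the lowest in 3, so its counts rest on that choice.

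The ERAD genes showed no common direction, with 4 of 7 lower in the mean, a median log2 difference of -0.092 and 0 of 7 past the unadjusted threshold. Herpud1, a membrane protein of the degradation complex, was at 79.3, 69.6, 72.0 and 95.9 FPKM with the HectD3 virus, against 253, 112, 84.1 and 82.1 FPKM with the LacZ virus, in 1 transcript at chr19:11046909-11057254 on the minus strand. LacZ 1 stood far above the other 7 libraries, 3.08 times their median. On the log2 scale HectD3 minus LacZ was -0.58 (SE 0.32, adjusted p = 0.723) with all libraries and -0.22 without LacZ 1 (adjusted p = 1). Its neighbours in the pathway did not share that excess in LacZ 1: Sel1l, the adaptor of the ligase, was at 24.1 FPKM there, its lowest LacZ value, and Syvn1 (HRD1), the ligase, at 10.8 FPKM.

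The log2 difference was -0.15 for Sel1l, -0.11 for Syvn1 and -0.092 for Edem1, which hands over misfolded glycoproteins. Among the derlins, which form part of the exit channel, it was 0.038 for Derl1, 0.094 for Derl2 and 0.30 for Derl3, with adjusted p of 0.719 to 0.89 over these 6 genes. Derl3 was close to the floor, listed at 0 in LacZ 2 and LacZ 4 and at 1.45 FPKM at most, in LacZ 1.

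None of the sensors and transcription factors differed beyond the spread of their libraries, with 5 of 6 lower in the mean and a median of -0.067. Xbp1 was at 87.1, 78.7, 73.8 and 70.5 FPKM with the HectD3 virus, against 103, 78.7, 84.9 and 86.9 FPKM with the LacZ virus. LacZ 1 was highest, LacZ 2 sat inside the HectD3 range, and the log2 difference was -0.18 (SE 0.10, adjusted p = 0.723). The table holds 1 Xbp1 transcript, so the splicing that IRE1 carries out is not measured by it.

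Atf4 was at 276, 275, 265 and 199 FPKM with the HectD3 virus, against 311, 208, 268 and 243 FPKM with the LacZ virus. The groups overlapped throughout, with the lowest value in HectD3 4 and the highest in LacZ 1, and the log2 difference was -0.015 (SE 0.14, adjusted p = 0.98). ATF4 protein is set largely by translation, which these values do not measure. For Atf6 the difference was -0.11, for Ern1 -0.021, for Eif2ak3 -0.28 and for Atf5, an ATF4 relative, 0.043, with adjusted p of 0.728 to 0.977. Eif2ak3 (PERK) also had its highest value in LacZ 1, at 6.79 FPKM, against 3.06 to 5.79 FPKM in the HectD3 libraries.

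Among the ATF4 targets the list median stood out in LacZ 1. LacZ 1 was the highest of the 8 in 7 of the 12 (58.3%), beside 32.6% of all genes tested, for which LacZ 1 was also the most frequent highest library. Relative to each gene's mean, the median over the 12 was 0.46 in LacZ 1 on the log2 scale and lay between -0.22 and -0.016 in the HectD3 libraries and between -0.16 and -0.033 in the other LacZ libraries. Some targets set apart all 3 libraries of negative score on the first component, LacZ 1, LacZ 2 and HectD3 4. These were the 3 highest libraries in Ddit3, Ddit4 and Psat1, 3 of the 12 targets (25%), beside 21.5% of all genes, and the 3 lowest in Ppp1r15a, 1 of the 12 (8.33%), beside 9.26%. The plot of list medians by library sets this beside the chaperones, which peak in LacZ 3.

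**Figure D2:**
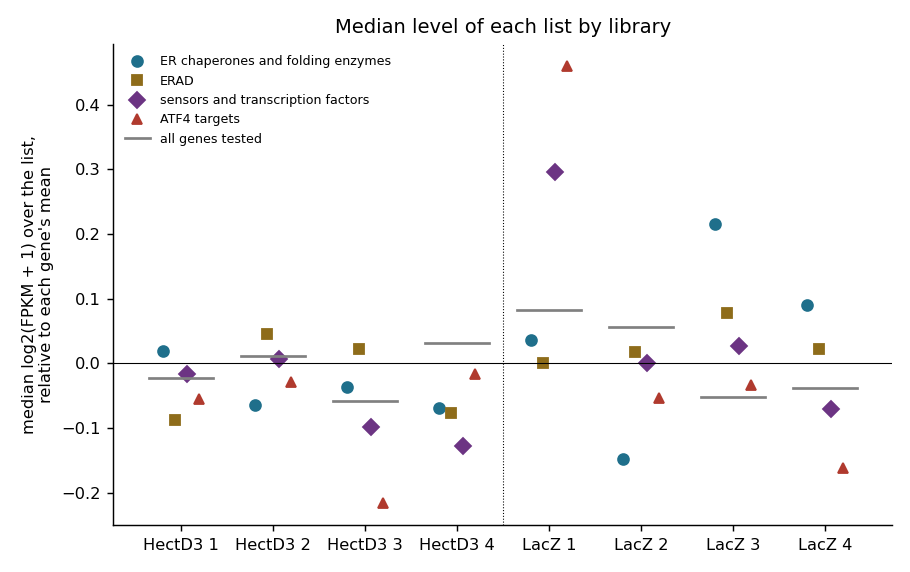
Median over each list of log2(FPKM + 1) relative to the gene's mean over 8 libraries, with HectD3 libraries left of the dotted line and LacZ libraries right of it. Grey lines are the median of all 12567 genes tested. ATF4 targets stand at 0.46 in LacZ 1 and chaperones at 0.22 in LacZ 3.

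Ddit3, which encodes the pro-apoptotic factor CHOP, was at 73.9, 65.6, 60.7 and 75.8 FPKM with the HectD3 virus, against 153, 74.9, 72.2 and 67.2 FPKM with the LacZ virus. LacZ 1 was 2.11 times the median of the other 7 libraries, and the other 3 LacZ libraries lay inside the HectD3 range. HectD3 minus LacZ was -0.33 (SE 0.23, adjusted p = 0.732) on the log2 scale, and -0.054 without LacZ 1. The gene has 2 transcripts, and the excess was in 1 of them. Ddit3-202 was at 39.3, 35.4, 30.3 and 41.5 FPKM with the HectD3 virus, against 117, 47.1, 44.7 and 38.7 FPKM with the LacZ virus, while Ddit3-201 was at 34.6, 30.1, 30.4 and 34.4 FPKM with the HectD3 virus, against 35.8, 27.8, 27.6 and 28.5 FPKM with the LacZ virus. None of the 8 transcripts of the 4 members with more than 1 (Hsp90b1, Ddit3, Asns and Ppp1r15a) passed an adjusted p under 0.05, beside 0.0453% of 15437 transcripts tested.

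Trib3, a pseudokinase that restrains ATF4 and AKT, was at 4.99, 4.99, 3.33 and 5.53 FPKM with the HectD3 virus, against 19.2, 4.38, 5.44 and 3.90 FPKM with the LacZ virus. Only LacZ 1 left the common range, at 3.85 times the median of the others. Between the groups the log2 difference was -0.44 (SE 0.40, adjusted p = 0.765) with 8 libraries and turned to 0.027 without LacZ 1. Chac1, an enzyme that degrades glutathione, had the largest excess of the 40 in LacZ 1. It was at 6.50, 6.36, 6.86 and 4.93 FPKM with the HectD3 virus, against 46.7, 5.65, 8.45 and 5.85 FPKM with the LacZ virus, in 1 transcript at chr3:111160205-111163425 on the plus strand, and LacZ 1 was 7.34 times the median of the other 7. As a log2 difference this was -0.75 (SE 0.55, adjusted p = 0.734), and -0.084 without that library.

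Ddit4 (REDD1), an inhibitor of mTORC1, was at 14.2, 9.82, 12.7 and 19.3 FPKM with the HectD3 virus, against 45.1, 17.7, 14.9 and 12.5 FPKM with the LacZ virus. HectD3 4 was the highest of its group, and LacZ 1 was 3.18 times the median of the others. The log2 difference of Ddit4 was -0.50 (SE 0.36, adjusted p = 0.732), and -0.12 without LacZ 1. Sesn2, which also restrains mTORC1 in amino acid loss, was at 12.01, 12.6, 10.5 and 11.95 FPKM with the HectD3 virus, against 24.9, 10.7, 11.3 and 10.2 FPKM with the LacZ virus. Its difference was -0.17 with all libraries and 0.12 without LacZ 1. Ddit4, Chac1, Sesn2 and Psat1 are given by library because of the values in LacZ 1, a choice made after these were seen.

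Asns, Phgdh and Nupr1, other classical targets, had LacZ 1 among the other libraries, while Psat1 had its highest value there. Asns, asparagine synthetase, was at 30.7, 27.5, 27.0 and 27.5 FPKM with the HectD3 virus, against 28.8, 26.3, 26.4 and 26.8 FPKM with the LacZ virus, a log2 difference of 0.054 (SE 0.075, adjusted p = 0.84). All 8 values lay within a narrow band and LacZ 1 was 1.07 times the median of the others. Transcript Asns-202 was above 1 FPKM only in HectD3 1, at 7.62 FPKM, and in LacZ 2, at 5.00 FPKM. Phgdh, which opens serine synthesis, was at 17.9 FPKM in LacZ 1, against 15.7 to 21.7 FPKM in the HectD3 libraries, and Nupr1, a chromatin-associated stress factor, at 92.8 FPKM, against 87.0 to 107 FPKM. Psat1, the next enzyme of serine synthesis, was at 11.6, 11.8, 10.0 and 15.8 FPKM with the HectD3 virus, against 18.5, 12.5, 9.40 and 9.49 FPKM with the LacZ virus, highest in LacZ 1, HectD3 4 and LacZ 2.

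Of the cystine transporter, the subunit Slc3a2 had its highest value in LacZ 1, at 104 FPKM, and Slc7a11 was low throughout, at 0.811 to 0.933 FPKM with the HectD3 virus and 0.822 to 1.12 FPKM with the LacZ virus. Chac1 was highest in LacZ 1 but low in LacZ 2, at 5.65 FPKM. Ppp1r15a (GADD34) brings the phosphatase to eIF2 and so ends the response. Its values ran opposite to Ddit3 in LacZ 1, LacZ 2 and HectD3 4, and to Chac1 in LacZ 1 alone. It was at 55.4, 75.7, 54.0 and 36.5 FPKM with the HectD3 virus, against 26.7, 28.1, 48.9 and 50.6 FPKM with the LacZ virus, lowest in LacZ 1 and LacZ 2 and highest in HectD3 2. HectD3 minus LacZ came to 0.53 (SE 0.27, adjusted p = 0.719) on the log2 scale. For the remaining members of the list the differences were -0.021 for Slc3a2, -0.081 for Slc7a11, -0.10 for Nupr1, 0.013 for Psat1 and 0.088 for Phgdh.

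**Figure D3:**
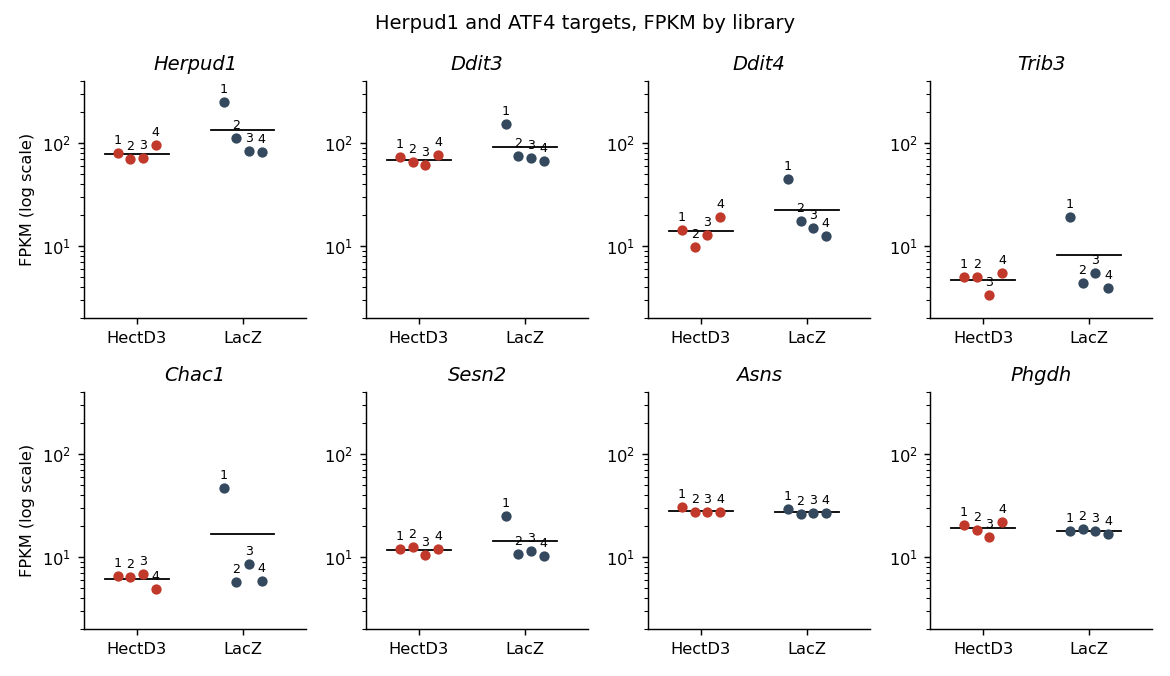
FPKM (log axis) of Herpud1 and 7 ATF4 targets, with HectD3 libraries in red on the left and LacZ libraries in blue on the right, numbered by replicate. Lines are group means (n = 4). LacZ 1 stands above the other 7 libraries in Herpud1, Ddit3, Ddit4, Trib3, Chac1 and Sesn2, and lies among them in Asns and Phgdh.

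Of the 12 ATF4 targets, 8 were lower in the mean with HectD3, 0 passed the unadjusted threshold in either direction, and the median log2 difference was -0.092. Without LacZ 1 the median was 0.055, with 5 of 12 lower, beside 0.0027 over all genes, and with libraries weighted by their estimated quality it was 0.015. The chaperone median kept its sign there, at -0.088, with 14 of 15 lower. The chaperone median minus the ATF4 target median was -0.026 with all libraries and -0.14 without LacZ 1. Between libraries of a group, the SD of this difference was 0.24. The order turned without LacZ 3, where the chaperone median was -0.059 and the ATF4 target median -0.081. It also turned without LacZ 4 and without HectD3 4. With all libraries kept it turned at a pseudocount of 0.1, where the chaperone median was -0.119 and the ATF4 target median -0.126. The range between LacZ libraries was wider than that between HectD3 libraries in 9 of 12 targets (75%), beside 59% of all genes, and its median was 0.36 among HectD3 libraries and 0.90 among LacZ libraries. In LacZ 1 the summed levels of fibroblast markers, at 2301 FPKM, of smooth muscle and pericyte markers, at 1634 FPKM, and of macrophage and leukocyte markers, at 348 FPKM, were each the lowest of the 8 libraries, and the HectD3 libraries held 2335 to 2614, 1963 to 3292 and 385 to 481 FPKM. Their part in the ATF4 target values was not tested.

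**Figure D4:**
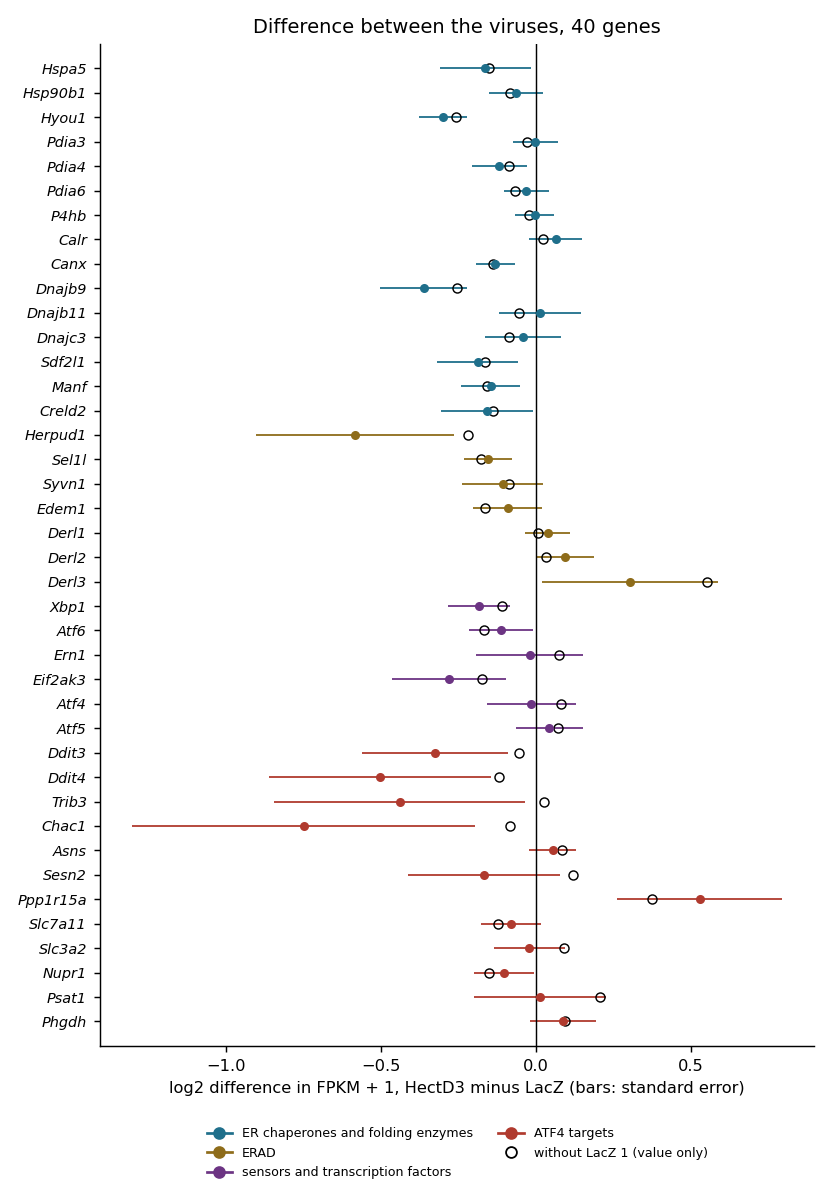
Log2 difference in FPKM + 1, HectD3 minus LacZ, for the 40 genes by role, as filled points with bars of 1 standard error (limma, 4 libraries each). Open circles are the values without LacZ 1. Open and filled points lie close together for most chaperones, at -0.26 and -0.30 for Hyou1, and far apart for Chac1, at -0.084 and -0.75.

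The heat map of all 40 genes gathers these patterns. In the chaperone rows LacZ 3 is most often the warmest column, and in the rows of ATF4 targets LacZ 1 is, although Ppp1r15a is lowest there. The ERAD rows share no such column, with medians of 0.0013 in LacZ 1 and 0.078 in LacZ 3.

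**Figure D5:**
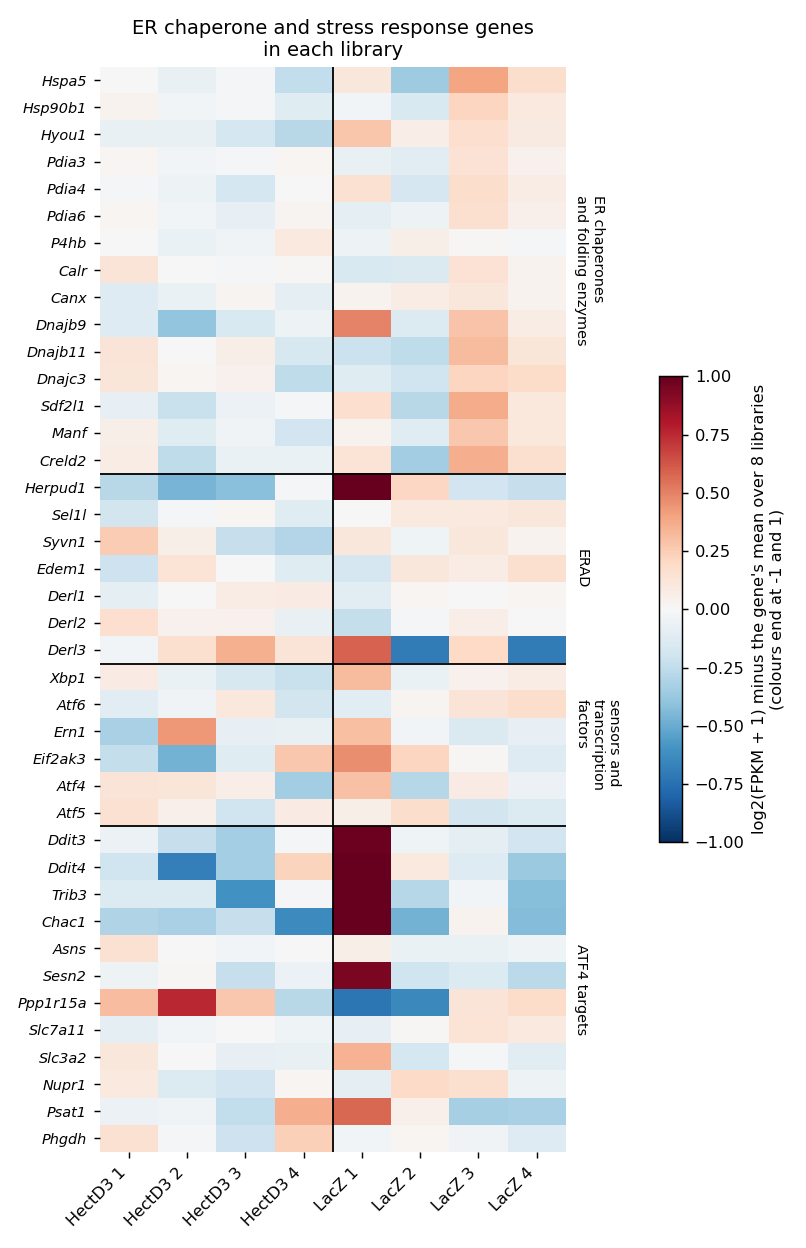
Heat map of log2(FPKM + 1) minus the gene's mean over 8 libraries, 40 genes in rows by role and libraries in columns, HectD3 left of the black line and LacZ right of it. Red is above and blue below the mean, with colours ending at -1 and 1. LacZ 3 is the highest library in 12 of 15 chaperones and LacZ 1 in 7 of 12 ATF4 targets.

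Genes next to these in the pathways were read from 6 further lists. Of the translocon, signal peptidase and oligosaccharyltransferase, which bring new proteins into the ER and attach glycans, 22 of 24 were in the table and 18 of 22 were higher in the mean with HectD3, beside 44.5% of all genes, with a median of 0.069. At an unadjusted p under 0.05, 3 of 22 were higher, beside 2.87% of all genes, and 0 lower, beside 4.28%. These were Ost4, an oligosaccharyltransferase subunit, at 324, 285, 313 and 332 FPKM with the HectD3 virus, against 215, 258, 286 and 275 FPKM with the LacZ virus, and the signal peptidase subunits Spcs1 and Sec11c. Spcs1 was at 101, 96.4, 94.2 and 111 FPKM with the HectD3 virus, against 80.7, 88.3, 94.1 and 85.1 FPKM with the LacZ virus, without overlap of the groups. Of all genes, 2.44% had the groups apart in this direction. Sec11c averaged 212 ± 30.4 FPKM with the HectD3 virus and 153 ± 48.0 FPKM with the LacZ virus (SD, n = 4 each), with LacZ 1 and LacZ 2 low, at 106 and 118 FPKM. The adjusted p of these 3 genes was 0.662 to 0.683. LacZ 1 was the lowest library in 18 of the 22 genes of this list (81.8%), beside 17.4% of all genes tested. LacZ 3 was the highest in 8 of them (36.4%), beside 6.16%. Without LacZ 1, 12 of 22 were higher in the mean, beside 50.8% of all genes, with a median of 0.024. With LacZ 3 and LacZ 4 against HectD3 1 to 3 the median of this list was -0.035, and with library weights it was -0.014. Its direction thus rested on the libraries kept and the weight given to each.

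Of 34 other ER folding and disposal genes in the table (36 listed), 3 were lower and 3 higher by the unadjusted rule. Over all genes 4.28% were lower and 2.87% higher by it. Lower were Uggt1, which reglucosylates unfolded glycoproteins, with a log2 difference of -0.20 (SE 0.081, adjusted p = 0.683), Sec24d, a COPII coat subunit, with -0.22 (SE 0.093, adjusted p = 0.683), and Ero1b, an oxidase that recharges protein disulfide isomerase, with -0.33 (SE 0.15, adjusted p = 0.698). Uggt1 was at 12.7, 13.7, 14.8 and 14.3 FPKM with the HectD3 virus, against 16.1, 16.3, 15.7 and 15.9 FPKM with the LacZ virus, and the groups did not overlap. Of all genes, 2.81% had the groups apart in this direction. Higher were Kdelr3, a receptor that returns ER proteins, with 0.28, Sdf2, the relative of Sdf2l1, with 0.17, and Fkbp11, a prolyl isomerase, with 0.18 (adjusted p 0.677 to 0.693). Sdf2 and Sdf2l1 thus had means on opposite sides, Sdf2 at 54.0 ± 2.42 FPKM with the HectD3 virus and 47.9 ± 3.26 FPKM with the LacZ virus and Sdf2l1 at 28.1 ± 1.85 FPKM with the HectD3 virus and 32.5 ± 5.99 FPKM with the LacZ virus (SD, n = 4 each).

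Among 14 genes of the eIF2 kinases, eIF2 and eIF2B, 1 was lower and 0 higher, beside 4.28% and 2.87% of all genes. Eif2ak2, which encodes PKR, a kinase of eIF2 that senses double-stranded RNA, stood at 44.9, 58.9, 49.2 and 55.6 FPKM with the HectD3 virus, against 89.4, 71.9, 66.4 and 64.6 FPKM with the LacZ virus. All HectD3 libraries lay below all LacZ libraries, as in 2.81% of all genes. The log2 difference was -0.48 (SE 0.12, adjusted p = 0.481), and -0.38 without LacZ 1 (adjusted p = 0.84). The remaining eIF2 kinases outside the 40 were Eif2ak1 (HRI), with -0.0039, and Eif2ak4 (GCN2), with -0.13. Of 11 proteases and relatives of ATF6 and IRE1 in the table (12 listed), 1 was lower, beside 4.28% of all genes. This was Mbtps2, the site-2 protease that releases ATF6 from the membrane, at 3.31, 3.63, 3.47 and 4.13 FPKM with the HectD3 virus, against 4.53, 4.74, 3.95 and 4.72 FPKM with the LacZ virus, with a log2 difference of -0.24 (SE 0.11, adjusted p = 0.693).

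None of 12 aminoacyl-tRNA synthetases and none of 25 other ATF4 response genes in the table (28 listed) passed the unadjusted threshold in either direction, with medians of -0.064 and -0.041. LacZ 1 was the highest library in 7 of the 12 synthetases (58.3%) and in 11 of those 25 (44%), beside 32.6% of all genes tested. Single genes are given by library, chosen after their values were seen. Stc2, Gpt2 and Atf3 are from those 25, and Bcl2l11 is from the relatives of ATF6 and IRE1. Stc2, the secreted factor stanniocalcin 2, was at 2.36, 1.93, 1.80 and 5.03 FPKM with the HectD3 virus, against 16.8, 6.24, 2.26 and 2.67 FPKM with the LacZ virus, and Gpt2, a mitochondrial alanine transaminase, at 2.15, 1.98, 2.03 and 3.19 FPKM with the HectD3 virus, against 5.56, 2.91, 2.11 and 1.83 FPKM with the LacZ virus. Bcl2l11 (BIM), a pro-apoptotic BCL2 relative, was at 4.02, 3.21, 3.67 and 10.2 FPKM with the HectD3 virus, against 21.4, 7.77, 3.36 and 3.44 FPKM with the LacZ virus. In Stc2, Gpt2 and Bcl2l11 LacZ 1 was the highest library, and both LacZ 2 and HectD3 4 also stood above the other 5. Over all genes tested, these were the 3 highest libraries in 21.5%. Atf3 resembled Ppp1r15a, at 14.5, 40.03, 16.9 and 9.55 FPKM with the HectD3 virus, against 6.69, 3.99, 13.6 and 15.4 FPKM with the LacZ virus, with LacZ 1 and LacZ 2 low and HectD3 2 high.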

How the data were processed

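RNA-seq of 8 NRVCM libraries was analysed from the deposited transcript table. The authors trimmed reads with cutadapt, aligned them with HISAT2, assembled with StringTie and deposited FPKM values from Ballgown. Versions, the genome build and the annotation were not given in the sources used here. Low values shared no common step (at most 1.44% of at least 1117 low transcripts at 1 ratio), so whole reads could not be recovered and no counting error is given.

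FPKM was summed over the transcripts of a symbol. The 12567 genes that averaged 0.5 FPKM or more were compared by limma 3.58.1 with trend in R 4.3.3, on log2(FPKM + 1), as HectD3 minus LacZ. Tests are two-sided and p-values adjusted by Benjamini-Hochberg over these genes. Differences on this scale understate changes of low genes. The script was run on simulated data with known changes. Libraries were grouped by their labels.

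The members and lists were chosen with earlier results of these data known. All 40 members are named, and values by library are given for those at an unadjusted p under 0.05 or with groups apart and for 9 fixed genes, and up to 3 genes each way from each further list. Hectd3, Nppb and Acta1 were fixed too. Other genes are said to be chosen later. Protein sequences were not analysed here. Alternatives covered the pseudocount, filter, scaling (TPM, median ratio, quantile), most abundant transcript, limma without trend or with library weights, a linear model with library size as in Ballgown, the replicate block, a threshold of 0.01 and each library left out. LacZ 3 and 4 against HectD3 1 to 3 was added after the libraries were seen to stand apart.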

Additional observations from a re-analysis of the deposited data

Results flagged for a closer look

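Among the 40 members and the further genes named, 9 values stood apart within their group of 4 libraries, by a gap to the nearest library that took up most of the group's range. Chance sets apart about 1 in 20 groups, and over all genes tested the share was 6.57% of HectD3 groups and 3.64% of LacZ groups. Of the 40 members, 3 had such a value in the HectD3 libraries and 6 in the LacZ libraries.

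In the LacZ libraries, 5 of the 6 were high values of LacZ 1 in ATF4 targets. These were Chac1 at 46.7 FPKM, Sesn2 at 24.9 FPKM, Ddit3 at 153 FPKM, Trib3 at 19.2 FPKM and Ddit4 at 45.1 FPKM. Over all genes, LacZ 1 was high in this way in 1.31%. The sixth was a low value, Sel1l at 24.1 FPKM in LacZ 1.

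In the HectD3 libraries, Calr was high in HectD3 1, at 669 FPKM, and Asns was high in HectD3 1, at 30.7 FPKM. Atf4 was low in HectD3 4, at 199 FPKM.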

How the results depend on the processing

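Of 837 member values under the 21 alternatives, 61 took the other sign, in 14 of the 40 genes, none at an adjusted p under 0.05, and the other 26 genes kept their sign under each that kept them in the test. The cause of these changes was not tested. With median-ratio scaling, the log2 difference was 0.023 for Pdia3, 0.021 for P4hb, 0.0012 for Ern1, 0.010 for Atf4 and 0.0039 for Slc3a2. With quantile normalization, the log2 difference was -0.0052 for Calr, -0.014 for Dnajb11 and 0.069 for Ern1. With library weights, the log2 difference was -0.019 for Calr, -0.12 for Dnajb11, -0.0037 for Derl1, 0.12 for Ern1, 0.071 for Atf4, 0.10 for Sesn2, 0.068 for Slc3a2, -0.25 for Nppb and -0.076 for Acta1. In the linear model with library size, the log2 difference was -0.011 for Calr, -0.14 for Dnajb11, 0.11 for Ern1, 0.070 for Sesn2, 0.042 for Slc3a2, -0.24 for Nppb and -0.27 for Acta1. With LacZ 3 and 4 against HectD3 1 to 3, the log2 difference was -0.051 for Calr, -0.16 for Dnajb11, -0.012 for Derl1, 0.12 for Ern1, 0.094 for Atf4, 0.11 for Sesn2, 0.071 for Slc3a2, -0.43 for Nppb and -0.12 for Acta1. With TPM, the log2 difference was -0.035 for Dnajb11, -0.010 for Derl1, -0.0057 for Atf5 and -0.032 for Psat1. With 1 library left out in turn, the range was -0.039 to 0.045 for Pdia3, -0.069 to 0.016 for Pdia6, -0.037 to 0.016 for P4hb, -0.068 to 0.12 for Dnajb11, -0.12 to 0.038 for Dnajc3, -0.17 to 0.084 for Ern1, -0.11 to 0.10 for Atf4, -0.012 to 0.12 for Atf5, -0.65 to 0.027 for Trib3, -0.28 to 0.12 for Sesn2, -0.085 to 0.090 for Slc3a2 and -0.11 to 0.21 for Psat1. The ERAD median ran from -0.15 to -0.028.

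The count of members lower at an unadjusted p under 0.05 was 4 with TPM (5.84% of all genes were lower), 4 with quantile normalization (3.69%), 9 with library weights (5.42%), 6 in the linear model (4.11%), 9 with LacZ 3 and 4 against HectD3 1 to 3 (4.32%), 1 at a threshold of 0.01 (1.28%) and 1 to 7 with 1 library left out (2.62% to 6.88%), and the count higher was 0 to 1 there. Genes called numbered 2 at a minimum mean of 5 FPKM, 2 with TPM, 3 with median-ratio scaling, 3 with quantile normalization, 11 with library weights, 0 in the linear model (where Hectd3 had a log2 difference of 5.83, adjusted p = 0.219, and 516 genes were lower by the unadjusted rule), 8 with LacZ 3 and 4 against HectD3 1 to 3 and 1 to 5 with 1 library left out. Genes lower at an unadjusted p under 0.05 numbered 324 at a minimum mean of 5 FPKM, 161 at a threshold of 0.01 and 329 to 865 with 1 library left out. Genes higher numbered 172 with TPM, 769 with library weights, 821 in the linear model, 644 with LacZ 3 and 4 against HectD3 1 to 3, 51 at a threshold of 0.01 and 220 to 442 with 1 library left out.

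The labels do not say whether same-numbered libraries share a preparation. Deviations of same-numbered libraries correlated at -0.37, -0.0089, 0.34 and -0.61. These cannot decide it, because the first principal component held 58.4% of the variance. With the replicate block 1 gene was called, 450 genes were lower and 167 higher by the unadjusted rule, and 2 members were lower, Hyou1 and Dnajb9. Depth is unknown, so no limit from counting can be given.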

Other observations

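Nppb, which encodes B-type natriuretic peptide, and Acta1, skeletal muscle actin, separated the same libraries within groups. Nppb was at 1163, 849, 1177 and 342 FPKM with the HectD3 virus, against 73.9, 147, 1461 and 1375 FPKM with the LacZ virus. Acta1 was at 673, 563, 729 and 118 FPKM with the HectD3 virus, against 113, 69.2, 727 and 685 FPKM with the LacZ virus. Both were low in LacZ 1, LacZ 2 and HectD3 4, where the ATF4 targets Chac1 and Trib3 were high in LacZ 1 alone. Nppb had a log2 difference of 1.04 (SE 0.95, adjusted p = 0.765) and Acta1 of 0.76 (SE 0.86, adjusted p = 0.806).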
